A study of Mus musculus with 77 samples.

Results

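The 10 genes described here encode the mouse AP-1 factors Fos, Fosb, Fosl1, Fosl2, Jun, Junb and Jund and the Batf factors Batf, Batf2 and Batf3. They are 10 of the 34328 protein-coding and long non-coding genes of the RefSeq table for mm10 (GRCm38.p6). They were chosen by name, with their peak presence, covered share and signal share in these same libraries already known, so all 3 measures are given as descriptions with no test. The marks H3K27ac, H2AK119Ub and H3K27me3 were profiled in 77 libraries by CUT&RUN, a method that uses antibodies to bring a nuclease to marked nucleosomes and sequences the DNA it releases. The cells were CD23+ B cells from the spleens of female mice, either after 24 h with 1 µM CpG, a DNA ligand of Toll-like receptor 9, or unstimulated (0 h). In the mb1-cre system, mice of genotype Xist fl/fl or WT all carried mb1-cre, so the control animals express Cre in the B lineage as well, and Xist, the RNA that silences the inactive X, is lost before the cells are taken. In the TAT-Cre system, cells of Xist fl/fl or WT mice received 80 µg of the cell-permeant recombinase for 45 min before the 24 h culture, and the 0 h cells were taken as a baseline with Xist still in place. Each group had 3 libraries, except that H3K27me3 in the mb1-cre system had 4 (Xist fl/fl, 24 h), 4 (WT, 24 h), 5 (Xist fl/fl, 0 h) and 4 (WT, 0 h). The labels call the replicates biological without tying them to separate mice, so the spread between them may in part be technical. Stimulation, 24 h of culture and, in the TAT-Cre system, the recombinase itself came together, and their parts cannot be told apart.

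AP-1 is a dimer of a Fos and a Jun protein, joined through their leucine zippers, that binds DNA with the letters TGANTCA. Fos, Fosb, Jun and Junb are immediate-early genes, which cells switch on within minutes of a signal and off again soon after. Batf proteins lack the activation domain of Fos, pair with Jun proteins and bind composite sites with Irf4 or Irf8. In B cells Batf is needed for class switching of antibody genes, and Batf3 is best known for its part in the development of cross-presenting dendritic cells. H3K27ac marks active promoters and enhancers, H2AK119Ub is placed by Polycomb repressive complex 1 and H3K27me3 by Polycomb repressive complex 2.

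Promoters of 4 members, from 250 bases before to 50 bases after the annotated start, are shown because these genes had different mark patterns below. Batf had H3K27ac at 24 h but in 1 library at 0 h, Junb carried it at both times, Fos lay under H2AK119Ub, and Batf3 had both Polycomb marks and no H3K27ac. Sequences are from RefSeq, build GRCm38.p6, written 5′ to 3′ on the gene's own strand, and capitals mark CG dinucleotides, the letter pair enriched at Polycomb-bound promoters in mammals and not to be confused with the CpG given to the cells.
Batf, chr12:85686470-85686769, plus strand: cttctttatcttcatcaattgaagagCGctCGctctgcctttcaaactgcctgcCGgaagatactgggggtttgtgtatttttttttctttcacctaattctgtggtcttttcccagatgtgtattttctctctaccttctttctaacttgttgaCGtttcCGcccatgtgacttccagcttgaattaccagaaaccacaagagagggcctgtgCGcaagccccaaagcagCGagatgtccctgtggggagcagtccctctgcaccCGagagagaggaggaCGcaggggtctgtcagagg
Junb, chr8:84978699-84978998, minus strand: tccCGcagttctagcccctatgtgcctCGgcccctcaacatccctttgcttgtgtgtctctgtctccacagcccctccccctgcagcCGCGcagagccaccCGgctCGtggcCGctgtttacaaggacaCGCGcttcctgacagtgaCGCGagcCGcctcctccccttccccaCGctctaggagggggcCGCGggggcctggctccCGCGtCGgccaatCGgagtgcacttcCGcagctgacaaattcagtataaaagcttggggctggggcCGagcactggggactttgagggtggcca
Fos, chr12:85473640-85473939, plus strand: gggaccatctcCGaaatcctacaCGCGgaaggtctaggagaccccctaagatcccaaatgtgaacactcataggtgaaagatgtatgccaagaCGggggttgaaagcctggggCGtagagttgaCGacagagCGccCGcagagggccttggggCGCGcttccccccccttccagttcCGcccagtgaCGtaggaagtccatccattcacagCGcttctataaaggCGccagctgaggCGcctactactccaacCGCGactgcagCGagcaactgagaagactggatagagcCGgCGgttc
Batf3, chr1:191098164-191098463, plus strand: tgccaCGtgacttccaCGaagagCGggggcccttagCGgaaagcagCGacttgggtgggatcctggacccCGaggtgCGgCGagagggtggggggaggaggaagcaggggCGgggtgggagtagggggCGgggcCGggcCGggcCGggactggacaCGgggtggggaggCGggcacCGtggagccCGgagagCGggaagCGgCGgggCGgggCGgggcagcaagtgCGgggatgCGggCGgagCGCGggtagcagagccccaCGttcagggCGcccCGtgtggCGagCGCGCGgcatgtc
Batf3 held 34 CG pairs in these 300 bases, Junb 21, Fos 20 and Batf 9, against a median of 7 and quartiles of 3 and 21 over 26794 promoters of the same length. Of the other members with an entry, Fosl2 had 32, Fosb 25, Jun 15 and Jund 3. Neither strand of the 8 promoters examined held the AP-1 letters TGANTCA or the CRE letters TGACGTCA. Among all promoters, 7.98% held TGANTCA and 1.89% held TGACGTCA. The CArG box, the site of serum response factor, was found in 1.59% of all promoters and in 0 of the 8. These windows do not reach regulatory DNA further upstream.

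A gene was given a peak where a deposited peak overlapped its window, meaning the gene body plus 2 kb at each end. The covered share is the percentage of that window under peaks. The signal share is the part of the list's autosomal peak signal that fell in the window, in ppm (parts per 1000000). The lists held between 1336 and 40688 peaks, and their read depth is unknown. The 10 lists of under 3000 peaks were all from 0 h cells, so an absent peak at 0 h can go with a short list. The longest H3K27ac list, from TAT-Cre Xist fl/fl cells at 0 h (replicate 2, 10393 peaks), stood apart from the other 0 h lists of that system, which held 1336 to 3804. Each of the 24 H3K27ac libraries had peaks at all 10 B cell marker genes examined, at 0 to 2 of 8 T cell markers, 0 to 1 of 8 myeloid, 0 to 1 of 4 NK cell and 0 to 1 of 4 erythroid markers. Their summed H3K27ac signal share at 24 h was 6647 to 9125 ppm for B cell, 26.2 to 90.2 ppm for T cell, 0 to 9.03 ppm for myeloid, 0 to 185 ppm for NK cell and 57.4 to 130 ppm for erythroid markers. At 0 h the sums were 5959 to 8433 ppm, 0 to 159 ppm, 0 ppm, 0 ppm and 0 to 76.2 ppm in the same order. The NK cell receptor gene Klrb1c made up the whole NK cell sum, with a peak in 11 of 12 libraries at 24 h and 0 of 12 at 0 h, and the globin gene Hbb-bt the whole erythroid sum, with a peak in 12 of 12 at 24 h and 7 of 12 at 0 h. The T cell kinase gene Lck had a peak in 12 of 12 libraries at 24 h and 10 of 12 at 0 h. Cd3d had a peak in 1 of 12 libraries at 24 h and 4 of 12 at 0 h, with at most 43.9 and 66.9 ppm. Cd3g had a peak in 5 of 12 at 24 h, with at most 4.85 ppm, and in 0 of 12 at 0 h. Itgam had a peak in 1 of 12 at 24 h and 0 of 12 at 0 h. Cd3e, Cd4, Cd8a, Csf1r, Lyz2, Ncr1 and Klf1 had no peak at either time. What part other cell types had in the values below was not tested. The title and the treatment entry disagree for H3K27me3 replicate 5 of the 0 h Xist fl/fl mb1-cre cells, the title giving 0 h and the entry 24 h of CpG; it was kept at 0 h.

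**Figure D1:**
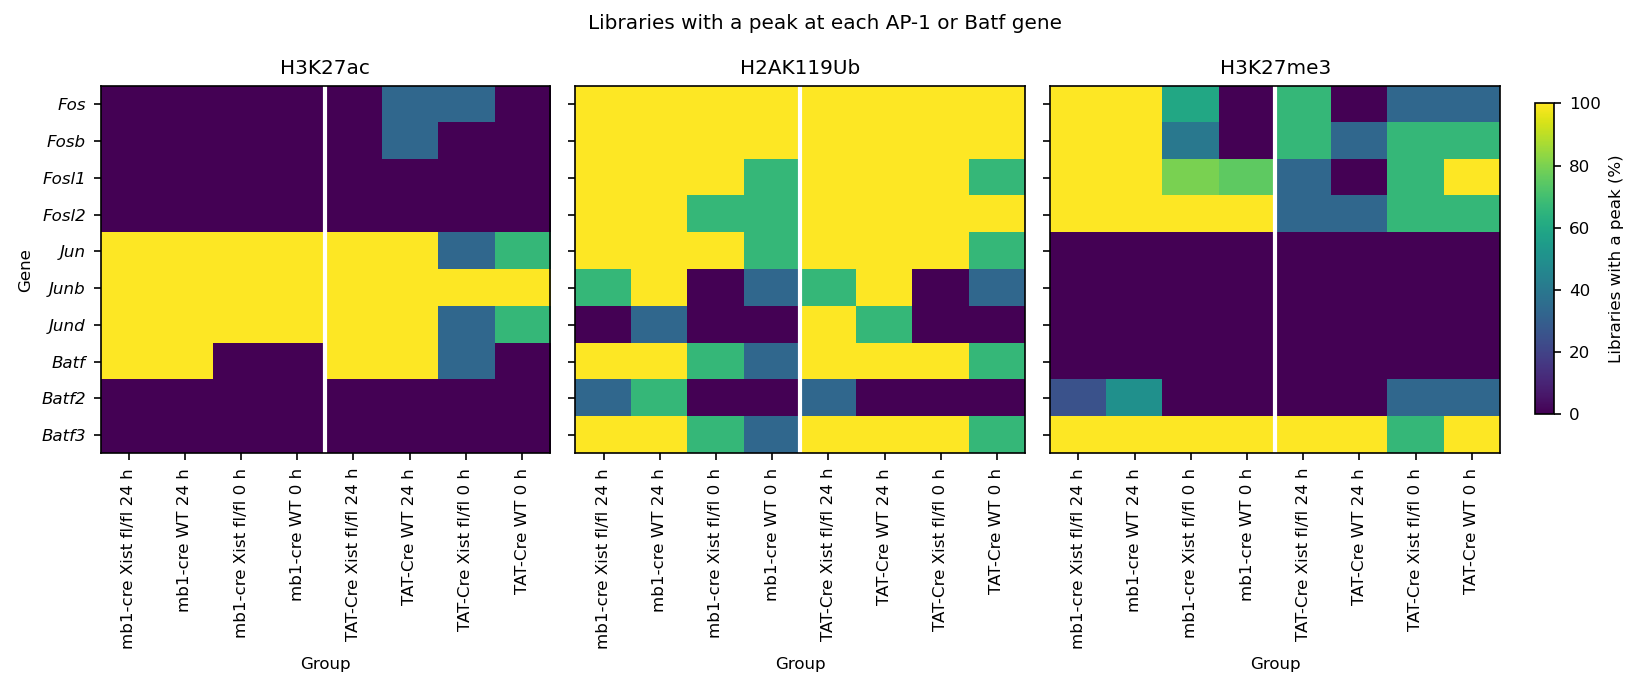
Share of the libraries in each group (columns) that had a peak at each of the 10 genes (rows), for H3K27ac, H2AK119Ub and H3K27me3; colour runs from 0 to 100%, and the white line parts the mb1-cre from the TAT-Cre system. Jun, Junb, Jund and Batf form the H3K27ac rows and have no H3K27me3, and Batf is filled at 24 h in all 4 groups.

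The 3 marks divided the 10 genes. H3K27ac peaks were found in 24 of 24 libraries at Junb, 21 at Jun, 21 at Jund, 13 at Batf, 2 at Fos and 1 at Fosb, and in none at Fosl1, Fosl2, Batf2 or Batf3. H3K27me3 ran the other way, with peaks in 28 of 29 libraries at Batf3, 23 at Fosl2, 21 at Fosl1, 17 at Fosb, 15 at Fos and 5 at Batf2, and in none at Jun, Junb, Jund or Batf. H2AK119Ub touched every member in at least 4 of 24 libraries, from 24 at Fos and Fosb down to 6 at Jund and 4 at Batf2. No base of a member's window lay under both H3K27me3 and H3K27ac in at least 50% of the libraries of each mark, in either system at either time. In mb1-cre cells the number of members with an H3K27ac peak was 4 in all 6 libraries at 24 h and 3 in all 6 at 0 h. In TAT-Cre cells it averaged 4.33 ± 0.82 at 24 h and 2.33 ± 1.63 at 0 h (SD, n = 6 each), a difference of 2 ± 0.82 (SE) that was 0.333 without the lists of under 3000 peaks. Of all protein-coding genes, 31.0% had an H3K27ac peak at 24 h and 15.6% at 0 h in mb1-cre cells, while TAT-Cre cells had 21.1% at 24 h and 11.8% at 0 h, on average over libraries.

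Batf was the member with H3K27ac in 12 of 12 libraries at 24 h and 1 of 12 at 0 h. In mb1-cre cells at 24 h its signal share was 351, 403 and 328 ppm in Xist fl/fl libraries, against 299, 322 and 329 ppm in WT libraries, and no 0 h library had a peak. In TAT-Cre cells it was 510, 428 and 431 ppm in Xist fl/fl and 396, 496 and 292 ppm in WT libraries at 24 h. At 0 h, 5 of 6 TAT-Cre libraries had no peak and the sixth, the long list named above, had 79.8 ppm. All 24 h libraries therefore lay above all 0 h libraries in both systems, and at 24 h Xist fl/fl and WT libraries overlapped. The difference between 24 h and 0 h was 339 ± 12 ppm in mb1-cre cells and 412 ± 35.1 ppm in TAT-Cre cells (SE, n = 6 against 6 each). Batf was 1 of the 4 members that could be compared in each system, where 18.8% of 9090 genes in mb1-cre cells and 5.72% of 6902 genes in TAT-Cre cells were higher at 24 h without overlap. It could be compared only because it had peaks at 24 h, so its call is no support beside these shares. The median gene differed by 17.1 ppm in mb1-cre and 19.0 ppm in TAT-Cre cells. In these bulk samples, more cells with the mark and more of it per cell cannot be told apart.

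The H3K27ac at Batf formed a wide domain and not only a promoter peak. Batf lies on chromosome 12 from 85686720 to 85709087 and is 22368 bp long. At 24 h the peaks ran from 1.2 to 2.86 kb before the start to 22.2 to 27.6 kb after it, spanning a median of 28.1 kb, and all 12 libraries had a peak over the start itself. They covered 98.2, 98.1 and 98.7% of the window in Xist fl/fl and 85.8, 100 and 97.2% in WT cells of the mb1-cre system. In TAT-Cre cells they covered 96.6, 56.1 and 88.1% in Xist fl/fl and 84.4, 100 and 82.7% in WT libraries. The strongest Batf peak of each 24 h list ranked within its top 4.69 to 27.2% by total signal, with a median of 5.95%. In the single 0 h library with peaks, 2 short ones covered 20.8% of the window, and the stronger ranked within the top 58.5% of its list.

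H2AK119Ub was also seen at Batf, mainly at both ends of the gene. All 12 libraries had such a peak at 24 h and 8 of 12 at 0 h. The signal share in mb1-cre cells was 74.8, 49.4 and 148 ppm (Xist fl/fl) and 134, 76.8 and 91.2 ppm (WT) at 24 h, against 25.9, 69.2 and 0 ppm (Xist fl/fl) and 0, 27.2 and 0 ppm (WT) at 0 h. One 0 h library reached into the 24 h range, so the groups overlapped. In TAT-Cre cells the means were 57.1 ± 27.2 ppm at 24 h and 41.2 ± 32.7 ppm at 0 h (SD, n = 6 each). At 24 h, 50.1% of the Batf window in mb1-cre cells and 28.1% in TAT-Cre cells lay under both H3K27ac and H2AK119Ub in at least 50% of each mark's libraries. The 2 marks came from separate libraries, so whether they share a cell or a nucleosome was not measured.

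**Figure D2:**
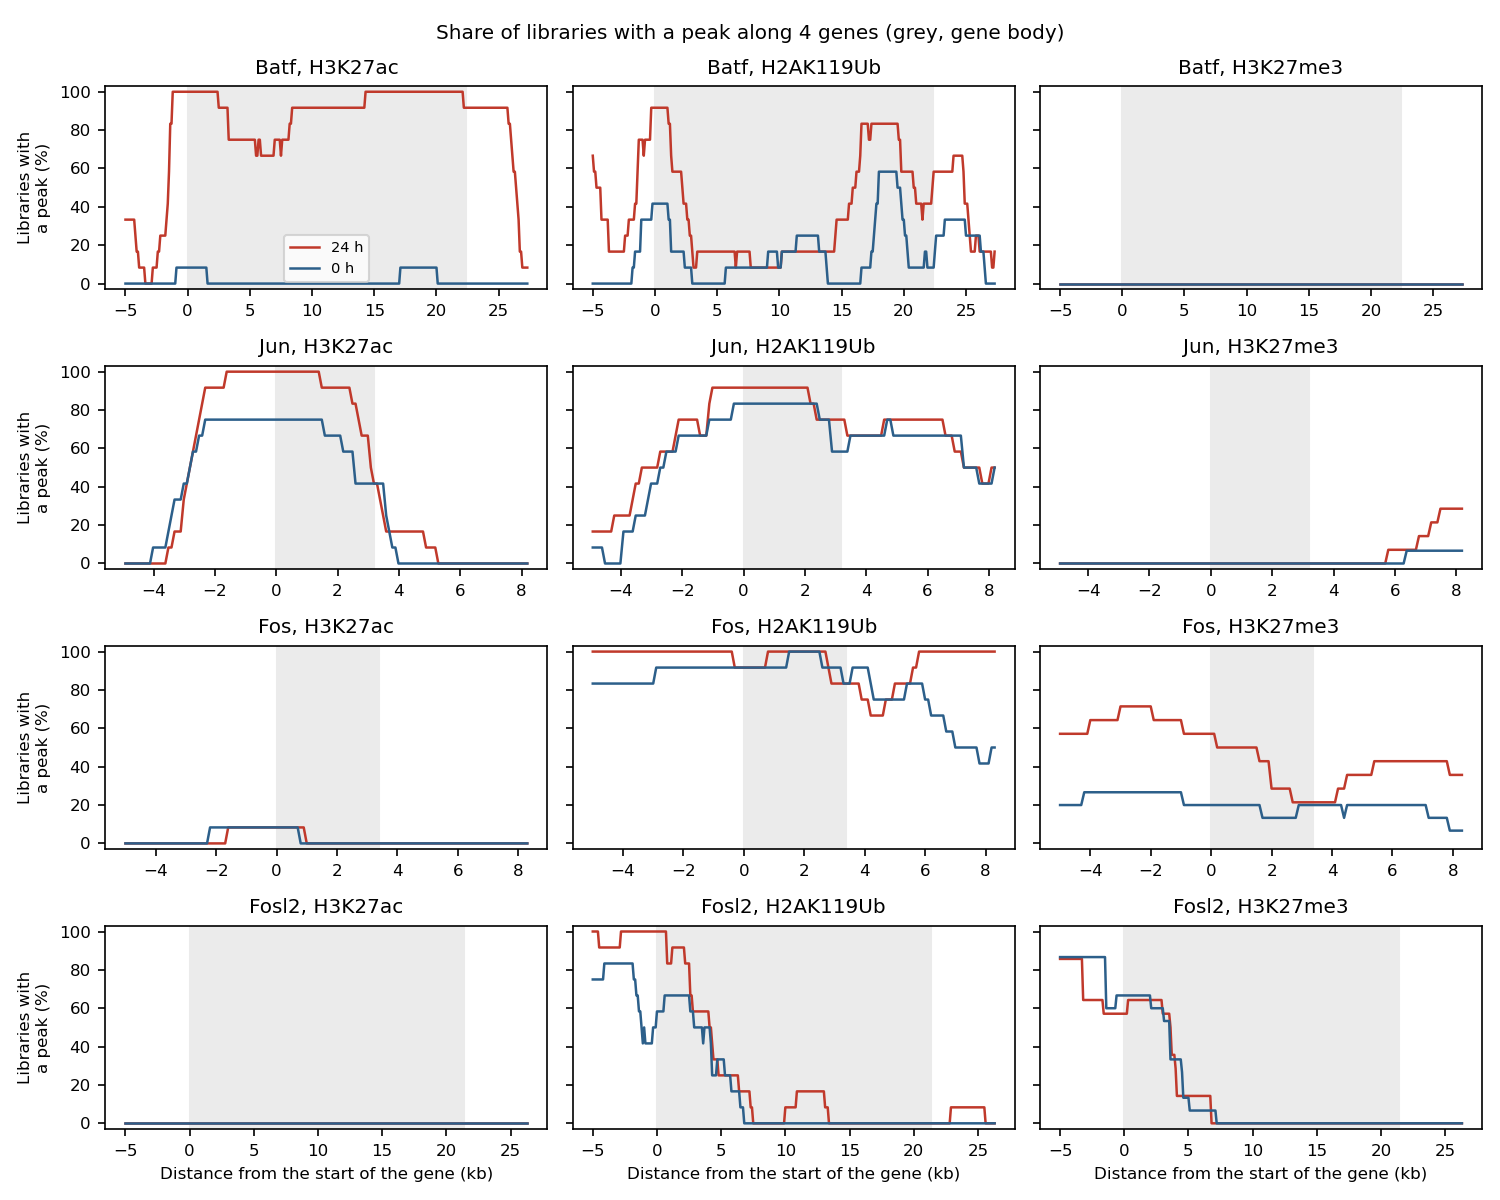
Percentage of libraries with a peak (y axis) against distance in kb from the start of Batf, Jun, Fos and Fosl2 along the direction of each gene (x axis), at 24 h (red) and 0 h (blue), both systems and genotypes together; grey, gene body. At Batf the 24 h H3K27ac line stays above 60% through the whole gene, while H2AK119Ub is highest near the start and towards the gene's end.

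Batf3 and Batf2 showed none of this acetylation. Batf3 (chromosome 1, 191098414 to 191108943) had an H3K27me3 peak in all 14 libraries at 24 h and in 14 of 15 at 0 h, and the strongest ranked within the top 7.89 to 31.9% of its list at 24 h and 5.91 to 83.0% at 0 h. Its H3K27me3 signal share in mb1-cre cells averaged 101 ± 20.9 ppm at 24 h (n = 8) and 110 ± 53.2 ppm at 0 h (n = 9; SD). In TAT-Cre cells it averaged 132 ± 22.1 ppm at 24 h and 67.7 ± 50.0 ppm at 0 h (SD, n = 6 each), with overlapping groups. The covered share of the Batf3 window in mb1-cre cells was 99.6, 100, 81.7 and 89.7% (Xist fl/fl) and 100, 77.4, 100 and 100% (WT) at 24 h. At 0 h it was 92.2, 42.9, 42.2, 58.4 and 100% in Xist fl/fl cells and 39.2, 39.9, 50.0 and 88.6% in WT cells, so most 0 h libraries lay lower but the ranges overlapped. No such order was seen in TAT-Cre cells, where the cover was 45.3 ± 6.01% at 24 h and 48.2 ± 35.9% at 0 h (SD, n = 6 each). H2AK119Ub touched Batf3 in 12 of 12 libraries at 24 h and 8 of 12 at 0 h. At 24 h, 58.6% of its window in mb1-cre cells and 39.6% in TAT-Cre cells lay under both Polycomb marks in at least 50% of each mark's libraries. Batf2 (chromosome 19, 6164397 to 6172476), known from interferon-treated macrophages, was the member with the fewest peaks: H2AK119Ub in 4 of 12 libraries at 24 h and 0 of 12 at 0 h, and H3K27me3 in 3 of 14 at 24 h and 2 of 15 at 0 h.

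Among the Jun genes, Junb was the one with H3K27ac in every library. Junb (chromosome 8, 84976909 to 84978748) lay inside a single peak in all 24 libraries, 13.1 to 24.9 kb wide, that covered 100% of the window. Its signal share in mb1-cre cells was 83.0, 105 and 72.9 ppm (Xist fl/fl) and 85.3, 90.9 and 80.6 ppm (WT) at 24 h, against 186, 175 and 165 ppm (Xist fl/fl) and 139, 192 and 181 ppm (WT) at 0 h. Every 24 h library was below every 0 h library. The mean share was 2.00-fold lower at 24 h, a difference of -86.6 ± 10.1 ppm (SE, n = 6 against 6). In TAT-Cre cells the share was 189, 242 and 123 ppm (Xist fl/fl) and 106, 138 and 110 ppm (WT) at 24 h, against 238, 169 and 259 ppm (Xist fl/fl) and 163, 278 and 216 ppm (WT) at 0 h. There the means leaned the same way, 151 ± 53.5 ppm at 24 h and 221 ± 47.0 ppm at 0 h (SD, n = 6 each), and the libraries overlapped. By rank within its list, the Junb peak of mb1-cre cells stood higher at 24 h (median, top 7.25%) than at 0 h (top 11.1%), with overlap. Share and rank both depend on the rest of the list, and the part of list length was not tested.

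By signal share, Jun and Jund followed the same order as Junb in mb1-cre cells, with smaller fold differences. Jun (chromosome 4, 95049036 to 95052222) had 76.4, 64.6 and 64.7 ppm (Xist fl/fl) and 57.8, 49.3 and 67.4 ppm (WT) of the H3K27ac signal at 24 h, against 79.4, 110 and 85.0 ppm (Xist fl/fl) and 79.9, 99.1 and 79.1 ppm (WT) at 0 h. Jund (chromosome 8, 70697739 to 70700616) had 77.9, 67.1 and 62.6 ppm (Xist fl/fl) and 58.1, 45.7 and 76.0 ppm (WT) at 24 h, against 98.5, 99.7 and 86.5 ppm (Xist fl/fl) and 88.1, 100 and 84.2 ppm (WT) at 0 h. Both were lower at 24 h without overlap, Jun by 25.4 ± 6.60 ppm and Jund by 28.3 ± 5.89 ppm (SE, n = 6 against 6). Of the 4 members compared, 3 were thus called lower in mb1-cre cells, where 11.9% of all genes were. With each list cut to its upper 50% by highest signal, however, Jun and Jund were higher at 24 h (differences of 16.5 and 39.8 ppm), while Junb was still lower. Both calls were also lost in lists of even length, but neither gene had a peak there in any mb1-cre library, so no direction could be read. By rank within the list both stood higher at 24 h, with medians of the top 36.1% against 69.5% at 0 h for Jun. For Jund these were 24.5% and 54.1%. The lists also differed in length, with medians of 8868 peaks at 24 h and 3962.5 at 0 h, and the part of list length in these values was not tested. The peaks covered 64.2 to 100% of the Jun window at 24 h and 58.1 to 79.5% at 0 h in mb1-cre cells.

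In TAT-Cre cells Jun and Jund had H3K27ac peaks in 6 of 6 libraries at 24 h and 3 of 6 at 0 h. The 3 libraries without either peak at 0 h were those with the shortest lists, 1336, 1508 and 1509 peaks. Where a peak was present at 0 h, Jun had 90.9 ppm (Xist fl/fl) and 84.1 and 116 ppm (WT), within or above the 24 h values of 111, 113 and 75.8 ppm (Xist fl/fl) and 64.7, 96.4 and 76.2 ppm (WT). None of the 4 members was lower at 24 h without overlap in TAT-Cre cells, where 2.41% of genes were.

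**Figure D3:**
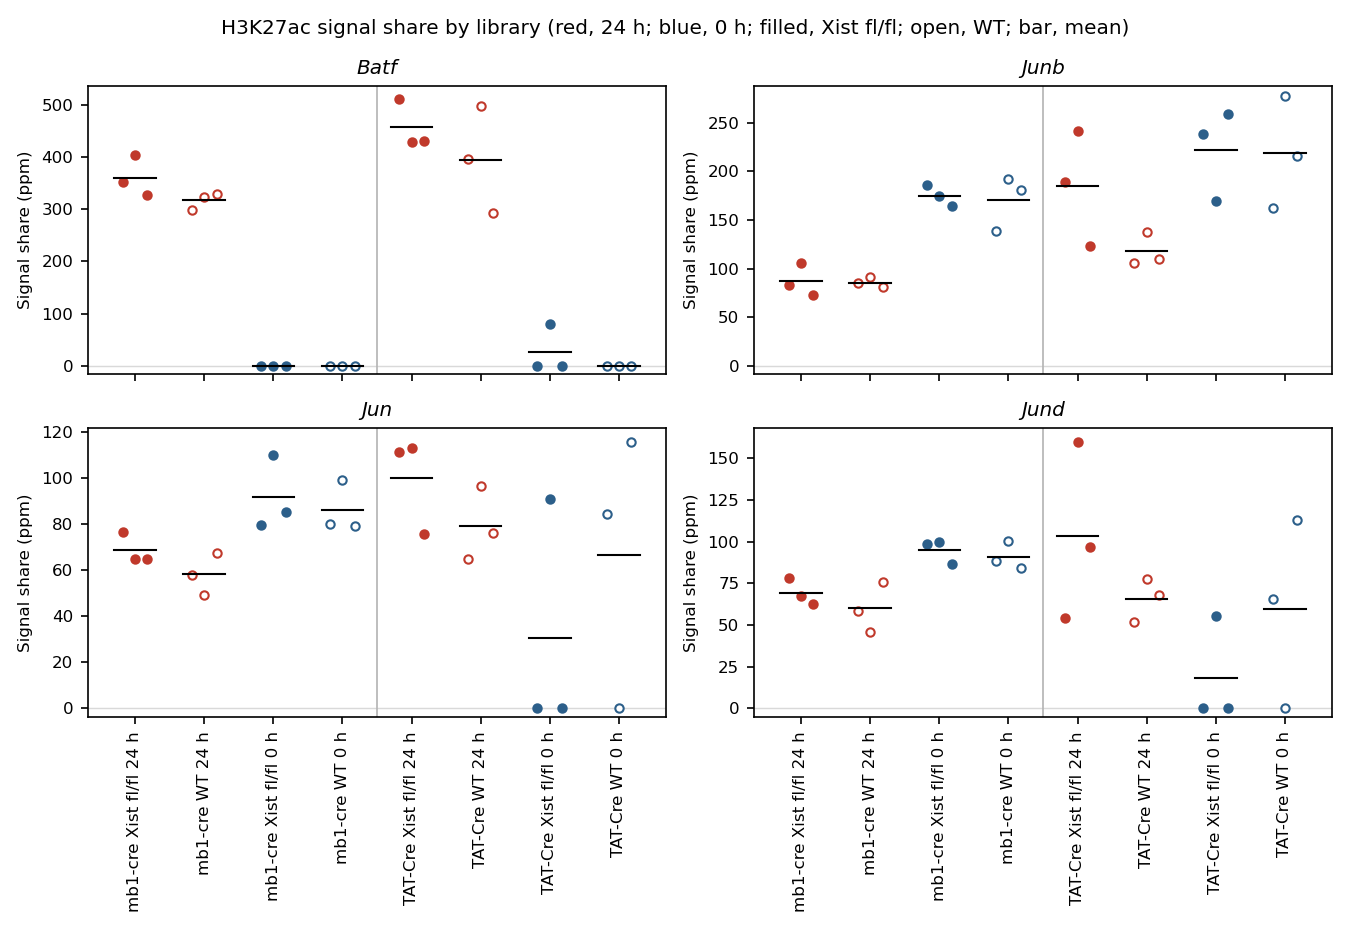
H3K27ac signal share in ppm of autosomal peak signal (y axis) in each library of the 8 groups (x axis) for Batf, Junb, Jun and Jund; points are libraries and bars are group means. Batf stands at 292 to 510 ppm in all 24 h libraries and at 0 in all 0 h libraries but 1, whereas Junb is present in all libraries and lower at 24 h in the mb1-cre system.

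The Jun genes differed from each other in H2AK119Ub. Jun had such a peak in 12 of 12 libraries at 24 h and 10 of 12 at 0 h, covering a median of 94.5% of the window at 24 h and 92.2% at 0 h. Bases under both H3K27ac and H2AK119Ub in at least 50% of the libraries made up 71.1% of the Jun window at 24 h and 76.8% at 0 h in mb1-cre cells, and in TAT-Cre cells 69.9% at 24 h and 49.0% at 0 h. At Junb the H2AK119Ub peaks were mostly seen after stimulation, in 10 of 12 libraries at 24 h and 2 of 12 at 0 h. This was not particular to Junb. Of the 10 B cell marker genes, a median of 6 (2 to 9) had an H2AK119Ub peak at 24 h and 1 (0 to 3) at 0 h. The Junb signal share of that mark was 17.2 ± 10.6 ppm at 24 h and 0.86 ± 2.11 ppm at 0 h in mb1-cre cells, and in TAT-Cre cells 25.3 ± 13.9 ppm at 24 h and 1.38 ± 3.37 ppm at 0 h (SD, n = 6 each). Since 1 of 6 libraries at 24 h in each system had no peak, the groups overlapped. Jund had H2AK119Ub in 6 of 12 libraries at 24 h, 5 of them in TAT-Cre cells, and in 0 of 12 at 0 h. Part of the Jun window, 26.5%, belongs to the long non-coding gene Junos, and 18.8% of the Jund window to Iqcn.

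The Fos genes carried the Polycomb marks. Fos (chromosome 12, 85473890 to 85477274) and Fosb (chromosome 7, 19302696 to 19310118) had H2AK119Ub in all 24 libraries, over a median of 100% of the Fos and 93.8% of the Fosb window. The strongest Fos peak ranked within the top 0.544 to 4.93% of its list at 24 h and 1.86 to 83.3% at 0 h. For Fosb these ranks were 0.262 to 9.34% at 24 h and 3.52 to 59.1% at 0 h. A rank is a percentage of its list, and the 4 H2AK119Ub lists of under 3000 peaks were all from 0 h cells. The part of list length in these ranks was not tested. The Fos signal share of H2AK119Ub in mb1-cre cells was 80.5 ± 21.1 ppm at 24 h and 83.9 ± 37.3 ppm at 0 h, and in TAT-Cre cells 58.1 ± 11.4 ppm at 24 h and 68.1 ± 28.0 ppm at 0 h (SD, n = 6 each). At Fosb it was 123 ± 31.7 ppm at 24 h and 130 ± 59.5 ppm at 0 h in mb1-cre cells, and in TAT-Cre cells 102 ± 16.0 ppm at 24 h and 96.0 ± 54.4 ppm at 0 h. These differences were smaller than the spread between libraries.

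H3K27me3 at Fos and Fosb was found mostly at 24 h in mb1-cre cells and showed no such order in TAT-Cre cells. In mb1-cre cells Fos had a peak in 8 of 8 libraries at 24 h and 3 of 9 at 0 h, and Fosb in 8 of 8 at 24 h and 2 of 9 at 0 h. The covered share of the Fos window was 100, 100, 64.9 and 100% (Xist fl/fl) and 52.9, 52.9, 63.3 and 27% (WT) at 24 h, against 0, 100, 0, 49.4 and 86.5% (Xist fl/fl) and 0% in all 4 WT libraries at 0 h. In WT cells every 24 h library was thus covered and no 0 h library was, while in Xist fl/fl cells the times overlapped. In the same 8 WT libraries 13.3% of 8903 genes were covered further at 24 h without overlap. In lists of even length neither Fos nor Fosb had an H3K27me3 peak in any of the 8 mb1-cre libraries at 24 h or the 9 at 0 h. The last of the Xist fl/fl covered shares, 86.5%, is the library whose treatment entry says stimulated. At 24 h in mb1-cre cells 80.1% of the Fos window lay under both Polycomb marks in at least 50% of each mark's libraries, against 0% at 0 h. In TAT-Cre cells Fos had a peak in 2 of 6 libraries at 24 h and 2 of 6 at 0 h, and Fosb in 3 of 6 at 24 h and 4 of 6 at 0 h. The number of all members with an H3K27me3 peak was 5.38 ± 0.52 at 24 h (n = 8) and 3.33 ± 1.12 at 0 h (n = 9) in mb1-cre cells, and in TAT-Cre cells 2.33 ± 1.63 at 24 h and 3.67 ± 2.25 at 0 h (SD, n = 6 each). The lists themselves moved the same way, with medians of 12722 peaks at 24 h and 4948 at 0 h in mb1-cre cells, while those of TAT-Cre cells had 6113.5 at 24 h and 12930 at 0 h, and their part in these counts was not tested. Cut to the shortest list of the mark, the differences were 0.525 in mb1-cre and 0.833 members in TAT-Cre cells, against 2.1 and -1.33 in the full lists. H3K27me3 peaks over all protein-coding genes moved the same way, found at 31.1% of them at 24 h and 19.6% at 0 h in mb1-cre cells, while TAT-Cre cells had 18.1% at 24 h and 22.5% at 0 h.

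Fosl1 and Fosl2, which encode the Fra-1 and Fra-2 proteins, had no H3K27ac in any library. Fosl1 (chromosome 19, 5447698 to 5455938) had H2AK119Ub in 12 of 12 libraries at 24 h and 10 of 12 at 0 h. In mb1-cre cells these peaks covered 84.1, 100 and 100% (Xist fl/fl) and 83.4, 83.2 and 100% (WT) of its window at 24 h, against 42.2, 72.1 and 53.6% (Xist fl/fl) and 0, 81.5 and 54.9% (WT) at 0 h. Every 24 h library was covered further than every 0 h library in that system, as held for 6.94% of 16776 genes. The Fosl1 signal share overlapped in these groups, at 76.9 to 155 ppm at 24 h and 0 to 146 ppm at 0 h. In TAT-Cre cells the cover was 72.8 to 100% at 24 h and 0 to 77.7% at 0 h, with overlap. The window of Fosl1 shares 36.0% of its length with Ccdc85b and cover there cannot be assigned to one of them. H3K27me3 at Fosl1 was seen in 1 of 6 TAT-Cre libraries at 24 h and 5 of 6 at 0 h, and in 8 of 8 mb1-cre libraries at 24 h and 7 of 9 at 0 h.

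Fosl2 (chromosome 5, 32136472 to 32157840) had its Polycomb marks mostly around the start of the gene, on both sides of it. The H3K27me3 peaks of mb1-cre cells ended 2.92 to 6.79 kb past the start at 24 h and 2.05 to 7.16 kb past it at 0 h. H2AK119Ub touched Fosl2 in 12 of 12 libraries at 24 h and 10 of 12 at 0 h, over at most 37.1% of the window. Its peaks reached up to 25.5 kb past the start in TAT-Cre cells at 24 h. H3K27me3 was present in all 17 mb1-cre libraries, always with a peak over the start, and in 6 of 12 TAT-Cre libraries, 1 of them with a peak over the start. This separation of the 2 systems was seen at both times, with 2 of 6 TAT-Cre libraries at 24 h and 4 of 6 at 0 h, and it was not tested.

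Over all genes compared, 2.88% were higher and 0.811% lower at 24 h without overlap for H3K27me3 in mb1-cre cells, and 1.7% were higher and 0.163% lower in TAT-Cre cells. For H2AK119Ub the shares were 13.3% higher and 2.36% lower in mb1-cre cells, and 9.47% higher and 2.71% lower in TAT-Cre cells. By signal share, none of the 6 (mb1-cre) and 5 (TAT-Cre) members compared for H3K27me3, and none of the 9 compared for H2AK119Ub in each system, was on either side. In mb1-cre cells other settings called some members higher at 24 h in H2AK119Ub: Fos and Fosb in lists of even length, Batf in the upper 50% of each list and Batf3 by the whole signal of touching peaks. The count of members with an H2AK119Ub peak was 8.5 ± 0.84 at 24 h and 5.5 ± 2.26 at 0 h in mb1-cre cells, and in TAT-Cre cells 8.83 ± 0.75 at 24 h and 6.5 ± 1.76 at 0 h (SD, n = 6 each). The mb1-cre difference of 3 ± 1.04 (SE) was 1 without the lists of under 3000 peaks. Of all protein-coding genes, 43.7% had such a peak at 24 h and 26.9% at 0 h in mb1-cre cells, while TAT-Cre cells had 51.7% at 24 h and 33.5% at 0 h.

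**Figure D4:**
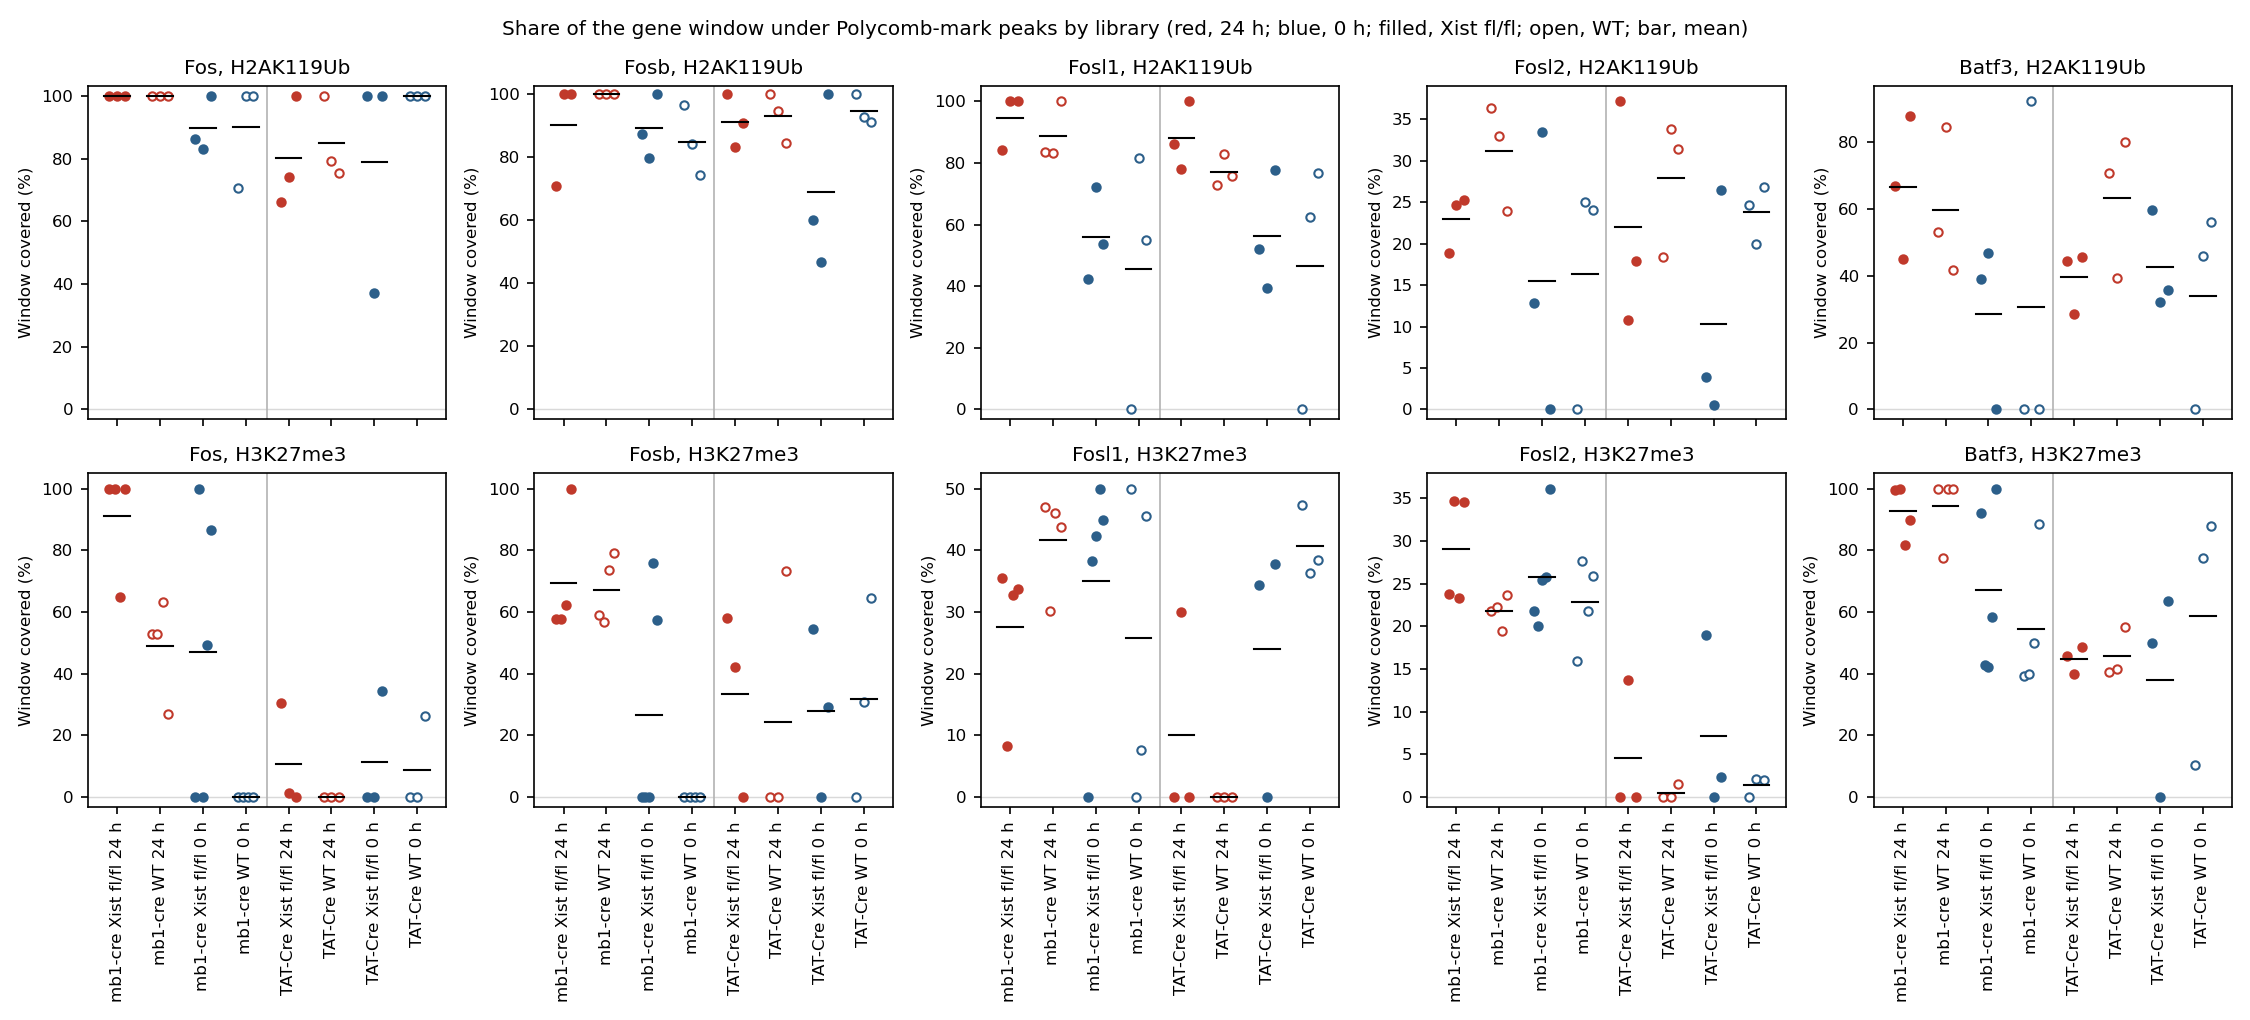
Percentage of the window of Fos, Fosb, Fosl1, Fosl2 and Batf3 under H2AK119Ub peaks (top row) and H3K27me3 peaks (bottom row) in each library of the 8 groups (x axis); points are libraries and bars are group means. H2AK119Ub covers most of the Fos and Fosb windows in nearly all libraries, and H3K27me3 at Fos and Fosb is at 0 in all 4 mb1-cre WT libraries at 0 h.

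The Xist genotype was compared within the mb1-cre system at each time and in TAT-Cre cells at 24 h. All 10 genes are autosomal. Across these 3 settings the number of members with a peak in Xist fl/fl cells, less that in WT cells, was -0.22 ± 0.22 for H3K27ac, 0.11 ± 0.73 for H2AK119Ub and 0.71 ± 0.51 for H3K27me3 (SE). For H3K27ac no member was separated by genotype in signal share. Those compared were 3 in mb1-cre cells at 0 h, 4 in mb1-cre cells at 24 h and 4 in TAT-Cre cells at 24 h. Of all genes 8.93%, 10.5% and 18.4% were separated in these settings, in the same order and in either direction. With so few members compared, their lack of separation does not set the family apart from all genes. By the whole signal of touching peaks Junb was separated in TAT-Cre cells at 24 h, higher in Xist fl/fl. In covered share Jund was separated in mb1-cre cells at 0 h, at 100% in all 3 Xist fl/fl libraries against 92.6 ± 1.28% in WT libraries (SD, n = 3), where 12.2% of genes were in either direction. Batf at 24 h averaged 360 ± 38.4 ppm in Xist fl/fl and 317 ± 15.7 ppm in WT cells of the mb1-cre system, and 456 ± 46.6 ppm in Xist fl/fl and 395 ± 102 ppm in WT cells of the TAT-Cre system (SD, n = 3 each).

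For H2AK119Ub, 3 of 9 members compared were separated in mb1-cre cells at 24 h, where 20.4% of genes were in either direction. Fos had 101, 78.6 and 110 ppm in Xist fl/fl libraries, against 71.1, 66.6 and 55.5 ppm in WT libraries. Fosb averaged 145 ± 30.5 ppm in Xist fl/fl and 99.9 ± 5.05 ppm in WT cells, and Fosl1 128 ± 23.8 ppm in Xist fl/fl and 79.4 ± 4.30 ppm in WT cells (SD, n = 3 each). All 3 were higher in Xist fl/fl cells by signal share. Their covered shares overlapped, with means of 100% in both genotypes at Fos. Fosb had 90.3% in Xist fl/fl and 100% in WT cells, and Fosl1 94.7% and 88.9%. In TAT-Cre cells at 24 h Fos had 55.4 ± 9.60 ppm in Xist fl/fl and 60.9 ± 14.5 ppm in WT libraries. Fosb had 100 ± 23.9 and 104 ± 7.19 ppm there and Fosl1 89.8 ± 22.2 and 81.1 ± 16.8 ppm, in the same order. The difference between the systems was not tested. The Xist fl/fl lists held 23425, 12808 and 9334 peaks and the WT lists 14806, 32632 and 20742, and their part in this was not tested. In lists of even length Fosl1 alone was still separated, and by the whole signal of touching peaks none was. No member was separated in mb1-cre cells at 0 h (7 compared, 2.02% of genes). By signal share in the full lists none was in TAT-Cre cells at 24 h (9 compared, 8.93% of genes). Other settings did separate members in TAT-Cre cells at 24 h. Lists of even length gave Fosl1 as higher and Fosb as lower in Xist fl/fl cells, the upper 50% of each list gave Batf as lower, and the whole signal of touching peaks gave Fosl1 as higher.

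For H3K27me3, Fosl2 was separated in mb1-cre cells at 24 h, with 50.8, 60.6, 48.7 and 45.8 ppm in Xist fl/fl and 35.8, 42.3, 41.4 and 33.4 ppm in WT libraries. It was 1 of 6 members compared, where 2.29% of genes were separated in either direction. The call was lost in lists of even length, in the upper 50% of each list and by the whole signal of touching peaks, which separated Fos instead. Fos showed more cover in Xist fl/fl cells of the same groups, 91.2 ± 17.6% against 49.0 ± 15.5% in WT cells (SD, n = 4 each), with no overlap in covered share (1.78% of genes, in either direction), while its signal share overlapped. No member was separated in mb1-cre cells at 0 h (4 compared, 0.557% of genes) or in TAT-Cre cells at 24 h (2 compared, 14.8% of genes).

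Genes around AP-1 were described from lists, by the same rule of no overlap in signal share between 24 h and 0 h. Of 7 genes known as Batf or AP-1 targets in lymphocytes, 4 could be compared for H3K27ac in mb1-cre cells and all 4 were higher at 24 h, against 18.8% of all genes. They were Cd44, an adhesion receptor (580 ± 45.2 ppm at 24 h and 414 ± 45.1 ppm at 0 h; SD, n = 6 each), the cytokine gene Il10 (70.0 ± 11.5 ppm, no peak at 0 h), the plasma cell regulator Prdm1 (65.3 ± 9.67 ppm, no peak at 0 h) and the cyclin gene Ccnd2 (59.0 ± 5.46 ppm, no peak at 0 h). Il10, Prdm1 and Ccnd2 had peaks at 24 h alone, so they could be compared only because they were high there. Their count is therefore no support beside the share of all genes. The lists were also longer at 24 h, with medians of 8868 peaks against 3962.5 at 0 h, and the part of list length was not tested. In TAT-Cre cells 4 could be compared and none was separated. Ccnd2 was lower at 24 h in both Polycomb marks in that system, with 60.2 ± 12.9 ppm of H2AK119Ub at 24 h and 120 ± 52.5 ppm at 0 h, and 2.19 ± 5.33 ppm of H3K27me3 at 24 h and 56.1 ± 22.8 ppm at 0 h. It was 1 of 6 compared for H2AK119Ub and 1 of 3 for H3K27me3, where 2.71% and 0.163% of all genes were lower.

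Of 5 genes of binding partners at composite sites, 4 could be compared for H3K27ac in mb1-cre cells and 3 were lower at 24 h, against 11.9% of all genes. They were Irf4 (342 ± 29.5 ppm at 24 h and 695 ± 62.2 ppm at 0 h), Nfatc1 (694 ± 78.5 ppm at 24 h and 961 ± 62.3 ppm at 0 h) and Irf8 (422 ± 64.8 ppm at 24 h and 569 ± 77.6 ppm at 0 h; SD, n = 6 each). None of 4 was separated in TAT-Cre cells. For H2AK119Ub, Irf8, Nfatc2 and Irf4 in mb1-cre cells and Irf8 and Irf4 in TAT-Cre cells were higher at 24 h, of 5 compared in each, against 13.3% of all genes in mb1-cre and 9.47% in TAT-Cre cells. Irf4, the partner of Batf, had 59.96 ± 11.8 ppm of this mark at 24 h and 3.56 ± 5.88 ppm at 0 h in mb1-cre cells.

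Of 14 other bZIP factors, 11 could be compared for H3K27ac in mb1-cre cells, where Bach2, Mafg and Atf3 were higher at 24 h and Nfe2l2 and Mafk lower. Of all genes 18.8% were higher and 11.9% lower, so the 3 and 2 of 11 lay near the background. Bach2, a repressor that holds back plasma cell fate, was also higher in TAT-Cre cells, at 5760.5 ± 882 ppm at 24 h against 3219.8 ± 568 ppm at 0 h (SD, n = 6 each). There it was 1 of 8 compared, against 5.72% of all genes. Atf3, a stress-induced factor, was lower in H2AK119Ub in both systems. It was 1 of 11 compared in mb1-cre and 1 of 12 in TAT-Cre cells, where 2.36% and 2.71% of all genes were lower. Its share was 81.6 ± 18.1 ppm at 24 h and 266 ± 106 ppm at 0 h in mb1-cre cells, and in TAT-Cre cells 74.8 ± 16.7 ppm at 24 h and 223 ± 116 ppm at 0 h. Its H3K27me3 share in mb1-cre cells was 33.3 ± 15.5 ppm at 24 h (n = 8) and 217 ± 45.2 ppm at 0 h (n = 9; SD). For that mark Atf3 was 1 of 3 compared, where 0.811% of all genes were lower. Mafg was higher in H2AK119Ub in mb1-cre cells, as 1 of 11 compared, against 13.3% of all genes.

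Of the 15 genes of the MAP kinase cascade that acts upstream of AP-1, 12 could be compared for H3K27ac in mb1-cre cells and 10 in TAT-Cre cells. The 2 higher of 12 and 1 higher of 10 were near the share of all genes, 18.8% in mb1-cre and 5.72% in TAT-Cre cells. Map2k6 and Map2k3, kinases of the p38 branch, were higher in mb1-cre cells (84.8 ± 14.2 and 57.5 ± 14.1 ppm at 24 h, no peak at 0 h), and Mapk14, the gene of p38 itself, in TAT-Cre cells (159 ± 17.9 ppm at 24 h and 40.6 ± 62.8 ppm at 0 h; SD, n = 6 each). Map2k6 and Map2k3 could be compared only because they had peaks at 24 h. For H2AK119Ub, Map2k3 was higher and Mapk8 lower in mb1-cre cells, of 14 compared, where 13.3% of all genes were higher and 2.36% lower. Among 6 MAP kinase phosphatases, which end the signal, Dusp10 was higher and Dusp2 lower in H3K27ac in mb1-cre cells, of 4 compared, near the 18.8% and 11.9% of all genes. Dusp4 was lower in H2AK119Ub in both systems, at 68.4 ± 19.6 ppm at 24 h against 187 ± 84.7 ppm at 0 h in mb1-cre cells, and 44.9 ± 6.2 ppm at 24 h against 176 ± 90.5 ppm at 0 h in TAT-Cre cells (SD, n = 6 each). Dusp6 and Dusp1 in mb1-cre and Dusp2 in TAT-Cre cells were higher in that mark, of 6 compared in each, where 13.3% of all genes in mb1-cre and 9.47% in TAT-Cre cells were higher and 2.36% and 2.71% lower.

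The genes whose H3K27ac signal share followed that of Batf most closely over the 24 libraries were Gpr19, Rab20 and Slfn4, with Spearman's rho of 0.98, 0.97 and 0.97. They were picked from 6390 protein-coding genes more than 100 kb away with a peak in at least 6 libraries. Gtpbp2 (0.94) and Cisd3 (0.93) were among the genes closest to Jun, and Jund was followed most closely by Ldb1, Arl6ip5 and Ing2 (0.85 each). These are descriptions without p-values, since all values of a library share its list length and scale.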

How the data were processed

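The submitters' processing notes name Trimmomatic 0.32 for trimming, Bowtie2 2.3.4.1 with the mm10 build for alignment, Picard, and deepTools 3.5.1. From their names, the lists are SEACR output in its relaxed mode with norm scaling. Which version, control or spike-in factor was used is not stated in the labels. The authors' deposited lists, 1 per library, hold for each peak its position, total signal and highest signal. This signal is summed coverage, and nothing shows that lists share a scale, so a gene's signal was divided by the signal of all autosomal peaks of its list. No lists were identical. Chromosomes other than the 19 autosomes and X were left out (Python 3.11.15, numpy 2.4.6, pandas 2.3.3, scipy 1.17.1).

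A gene window was the RefSeq body with 2 kb on either side, and the signal of a peak was shared out by overlap. A gene was called where every library of one group lay above every library of the other, over genes that had peaks in 3 or more of the libraries compared. Differences are means of those within each genotype, with their SE. Read depth is unknown, so no intervals are given. The script was tested on simulated lists. The members, lists and rules were chosen with earlier results of these data known. All 10 members are described, and up to 4 genes per list and direction are named by the largest difference in mean signal share; some genes that this and the other rules pick are not reported here. Alternatives were trimmed lists, the upper 50% by highest signal, 500 bp of overlap, the gene body alone, no short lists, each library left out, replicate 5 moved to 24 h, WT libraries alone, the whole signal of touching peaks, all chromosomes and no filter; same-numbered libraries were also compared as a replicate block, added after seeing the data.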

Additional observations from a re-analysis of the deposited data

Results flagged for a closer look

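A library was marked where it stood apart from the others of its group by Dixon's criterion, which could be applied only to H3K27me3 in the mb1-cre system, since all other groups had 3 libraries. Chance marks about 1 in 20 groups, and 20 were examined for single genes. That rate does not hold for tied counts or zeros, where any single library that differs is always marked. This applies to both member counts and to Batf2 below. In WT cells at 0 h, replicate 2 had peaks at 2 members while the other libraries had 3, and replicate 1 had the lowest Batf3 signal share, 73.9 ppm. In Xist fl/fl cells at 24 h, replicate 2 had peaks at 6 members while the others had 5; the added gene was Batf2, with 11.6 ppm. In Xist fl/fl cells at 0 h, replicate 1 had the highest Batf3 signal share, 244 ppm; its list, with 1955 peaks, is the shortest of the mark. The Batf3 difference between 24 h and 0 h in mb1-cre cells was -7.90 ppm with this library and 7.90 ppm without it. No member had opposite differences without overlap in the 2 systems.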

How the results depend on the processing

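A replicate block, added after seeing the data, took differences within same-numbered libraries. The labels do not say that a number marks a shared mouse or day, and in no comparison did the deviations from the group means correlate above 0.1 in every same-numbered pair (-0.31 to 0.49 over genes). It changed the number of members with a peak for H3K27me3 alone, to 2.25 between the times in mb1-cre cells and 0.61 between the genotypes. The other comparisons had groups of equal size, where the block cannot change the mean difference and only the SE can move. The number of members with a peak, 24 h less 0 h, moved by more than the spread between replicates in 5 cases. In lists cut to the shortest of the mark it was 0.525 for H3K27me3 in mb1-cre cells and 0.833 in TAT-Cre cells, where the full lists gave -1.33. Without lists of under 3000 peaks it was 1 for H2AK119Ub in mb1-cre cells and 0.333 for H3K27ac in TAT-Cre cells. In the upper 50% of each list it was 1.83 for H3K27ac in mb1-cre cells. The cause was not tested. Leaving out 1 library at a time gave 1.88 to 2.25 (H3K27me3, mb1-cre), -2.17 to -0.83 (H3K27me3, TAT-Cre), 2.25 to 3.75 and 1.58 to 2.83 (H2AK119Ub, mb1-cre and TAT-Cre) and 1 in all cases and 1.67 to 2.67 (H3K27ac, mb1-cre and TAT-Cre). For the genotype it gave 0.38 to 1.04 (H3K27me3), -0.39 to 0.61 (H2AK119Ub) and -0.33 to 0 (H3K27ac). Batf stayed higher in H3K27ac at 24 h without overlap under all 7 alternatives run in mb1-cre cells and all 8 in TAT-Cre cells, beside those leaving out a library, with differences of 291 to 614 ppm and 355 to 552 ppm. Junb stayed lower in mb1-cre cells under all 7 (-209 to -27.3 ppm). In the upper 50% of each list the differences of Jun and Jund in mb1-cre cells turned to 16.5 and 39.8 ppm. Both also lost the call in trimmed lists, where neither had a peak in mb1-cre cells, and Jun in the gene body alone. Dropping the filter on genes could not change the counts of called genes. A called gene has a peak in every library of its higher group and so always passes the filter. Short lists at 0 h limit what an absent peak can show.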
